A study of Mus musculus with 18 samples.

Results

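The semaphorin, plexin, neuropilin, ephrin, Eph, Slit, Robo, netrin and Unc5 genes are the main families of secreted and membrane-bound guidance cues and their receptors. They were chosen by symbol alone, and 67 of the 24333 gene symbols counted in both cell lines belonged to them. Of these, 20 encoded semaphorins, 9 plexins, 2 neuropilins, 8 ephrins, 14 Eph receptors, 3 Slits, 3 Robo receptors, 4 netrins and 4 Unc5 receptors. RNA-seq was done on cultured cells of 2 mouse mammary tumour lines that do not form metastases, 168FARN and 67NR. Each line was measured as WT, *Kmt2c* KO and *Kmt2d* KO cells, with 3 replicates of each of the 6 groups and 18 libraries in all. *Kmt2c* and *Kmt2d* encode histone H3 lysine methyltransferases that act at enhancers, and the comparisons ask which genes change when either is lost. KO cells were sorted pools, not clones, made by transient transfection of Cas9 with 3 sgRNAs against the first exon of the gene. The authors sequenced the targeted regions and found mostly mutant reads in every KO, and their immunoblots showed less of the targeted protein. The mutant share was lowest in the 67NR *Kmt2c* KO, where a sizeable part of the reads was not mutant. By this measure, editing of the gene in that pool was less complete than in the other KOs. WT cells of 168FARN had received a control sgRNA, and those of 67NR are labelled WT only. Replicates were collected 1 passage apart, so p-values measure the spread between these collections.

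Guidance cues were first described in growing axons, where they attract or repel the growth cone, and the same genes act in vessels, epithelia and migrating tumour cells. Most secreted class 3 semaphorins bind neuropilins together with class A plexins, although Sema3e binds Plxnd1 without them. The membrane-bound classes bind plexins directly, and the GPI-anchored Sema7a binds Plxnc1 and also integrins. Ephrins are bound to the membrane and signal in both directions when they meet an Eph receptor on a neighbouring cell. Slits are bound by Robo receptors, and netrins by Dcc, neogenin and the Unc5 receptors.

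Promoters are shown for 4 guidance genes that were called in both KOs of 67NR, the 2 higher and the 2 lower with the smallest p-values among those with 1 promoter in RefSeq. Each run is the 250 bases before the RefSeq transcription start in GRCm38.p6, read 5′ to 3′ on the strand of the gene, and capitals mark the GC box, GGGCGG or its reverse complement CCGCCC, which is the letters bound by Sp1-family factors. *Sema7a* lies at chr9:57939862-57940111 on the plus strand, *Plxna2* at chr1:194619579-194619828 on the plus strand, *Efnb2* at chr8:8661243-8661492 on the minus strand and *Ephb6* at chr6:41605261-41605510 on the plus strand.
Sema7a: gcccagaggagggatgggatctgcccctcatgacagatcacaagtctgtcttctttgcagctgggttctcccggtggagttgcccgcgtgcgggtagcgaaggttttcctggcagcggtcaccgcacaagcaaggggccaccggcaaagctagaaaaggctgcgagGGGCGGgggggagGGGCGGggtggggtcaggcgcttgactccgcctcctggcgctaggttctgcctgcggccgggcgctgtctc
Plxna2: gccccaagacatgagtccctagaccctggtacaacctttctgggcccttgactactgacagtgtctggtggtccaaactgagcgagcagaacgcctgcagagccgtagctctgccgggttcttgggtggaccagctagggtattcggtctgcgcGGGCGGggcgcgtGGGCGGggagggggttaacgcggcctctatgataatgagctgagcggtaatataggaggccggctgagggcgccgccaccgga
Efnb2: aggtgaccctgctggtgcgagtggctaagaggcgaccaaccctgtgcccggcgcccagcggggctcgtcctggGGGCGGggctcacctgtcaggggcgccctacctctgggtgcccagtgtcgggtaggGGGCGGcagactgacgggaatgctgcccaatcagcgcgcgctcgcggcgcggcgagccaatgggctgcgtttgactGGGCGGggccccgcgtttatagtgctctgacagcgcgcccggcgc
Ephb6: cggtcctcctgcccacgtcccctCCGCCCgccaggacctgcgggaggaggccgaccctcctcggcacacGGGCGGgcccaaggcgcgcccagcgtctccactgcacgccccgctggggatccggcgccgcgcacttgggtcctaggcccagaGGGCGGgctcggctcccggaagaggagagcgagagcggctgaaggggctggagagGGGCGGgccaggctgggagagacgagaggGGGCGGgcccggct
The stretches held 2 GC boxes in *Sema7a*, 2 in *Plxna2*, 3 in *Efnb2* and 5 in *Ephb6*, with 17, 18, 27 and 27 CpG dinucleotides. An E-box of the letters CAGGTG or CACCTG occurred 1 time in *Efnb2* and was not in the other windows. Both motifs were picked after the sequences had been read, on both strands, and they do not overlap each other. Of all 32851 promoters in the table, 32.7% held a GC box and 17.2% an E-box, with a median of 6 CpG. RefSeq promoters were matched for 58 of the 67 guidance genes, and of their 74 promoters 71.6% held a GC box and 13.5% an E-box, with a median of 15 CpG. A GC box was in 6 of 10 promoters of genes higher in both KOs of 67NR and in 13 of 17 promoters of genes lower in both. These matches describe letters in a window and are not binding sites.

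Between 14359760 and 43427382 counts on genes were obtained per library in 168FARN and between 40951775 and 79251530 in 67NR, and guidance genes took 0.136% to 0.298% of them. Replicate 3 stood apart from the others in both lines, and in replicate 3 of the 67NR *Kmt2d* KO 28.7% of counts fell on *Rn45s*, a ribosomal RNA gene. No fall in transcripts of the targeted genes was resolved. *Kmt2c* differed from WT by a log2 fold change of −0.18 ± 0.49 (SE, n = 3) in the 168FARN *Kmt2c* KO and 0.63 ± 0.14 in that of 67NR. *Kmt2d* differed by 0.71 ± 0.36 and 0.22 ± 0.23 in the *Kmt2d* KO. In 67NR *Kmt2c* was higher than WT in the *Kmt2c* KO (edgeR adjusted p = 0.0067) and also in the *Kmt2d* KO (0.80 ± 0.14, 0.0031). Counts over a whole gene do not show whether its first exon was edited, so they do not check these labels. The 13 epithelial markers summed to between 2875 and 4317 CPM, counts scaled by library size, in 67NR WT libraries, 618.7 to 861 in *Kmt2c* KO and 1088 to 1719 in *Kmt2d* KO libraries. Of the 12 tested, 12 fell in the *Kmt2c* KO and 8 in the *Kmt2d* KO, whereas *Krt5* was at 0 in every library of 67NR. In 168FARN these markers summed to between 101.3 and 399.3 CPM in all groups, and *Epcam*, *Krt5*, *Cldn3*, *Cldn4* and *Cldn7* were at 0 counts. Of 11 mesenchymal markers, 7 rose and 1, *Fn1*, fell in each KO of 67NR. Leukocyte markers summed to at most 93.3 CPM, endothelial markers to at most 11.9 and neural markers to at most 40.8 in any library.

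Levels are given as CPM after TMM normalisation over all 18 libraries, and as CPM per kb of exon where genes are compared. With a mean of at least 1 CPM taken as expressed, 31 of the 67 guidance genes were expressed in 168FARN WT cells, 32 once *Kmt2c* was lost and 35 once *Kmt2d* was lost. For 67NR the numbers were 43 for WT, 37 for the *Kmt2c* KO and 41 for the *Kmt2d* KO. Of the ephrins, 7 of 8 were expressed in the WT cells of either line, and both neuropilins were expressed in every group. No Robo or Slit gene reached this level in any 168FARN group. *Epha5*, *Ephb1* and *Unc5a* had 0 counts in all libraries, and *Sema5b* and *Unc5c* had at most 1 count in any library. In 67NR WT cells the highest levels per kb were those of *Efnb2* at 45.5 ± 3.7 CPM per kb (SD, n = 3), *Efna1* at 41.0 ± 2.6, the co-receptor *Nrp2* at 38.2 ± 11.2 and *Sema3c* at 31.0 ± 17.3. These means lay within about the spread of *Nrp2* and *Sema3c*, so their order is not fixed by these replicates. In 168FARN WT cells *Epha2* at 41.5 ± 7.7, *Sema5a* at 34.3 ± 12.7, *Efna1* at 34.2 ± 17 and *Nrp2* at 33.6 ± 5.2 CPM per kb were highest, and they too overlapped. *Efna5* had no entry in the annotation used for lengths.

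To ask which cues and receptors each line starts with, the WT cells of the 2 lines were compared. A gene was called when its Benjamini-Hochberg adjusted p in edgeR's quasi-likelihood test was under 0.1 and its log2 fold change was beyond 0.6 in either direction. Of the 52 guidance genes that passed the filter on low counts, 25 were higher and 9 lower in 67NR, or 65.4%, against 39.2% of all 13882 genes tested, of which 22.3% were higher and 16.9% lower. A replicate block common to both lines raised the guidance genes called to 40, against 45.4% of all genes. That block treats equal replicate numbers of the 2 lines as 1 collection, whereas the pairing was checked only within each line. The median log2 difference was 0.89 over these genes and 0.04 over all. A gene that passed the filter through 1 line alone had to differ, so the count describes the tested genes and not the 67. Line and the control sgRNA of 168FARN cannot be told apart here. In a bulk sample, fewer cells that express a gene and less RNA per cell cannot be told apart either.

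Of the Eph receptors 7 of 8 tested were higher in 67NR, and of their ligands 3 of 8, with none of either called lower. Among these receptors *Epha1*, *Epha4* and *Epha8* did not pass the filter within 168FARN. They entered through 67NR and could only come out higher there. *Epha1*, a receptor of A-type ephrins, had 6952 counts over the 3 WT libraries of 67NR and 1 count over those of 168FARN, a ratio of 3690 (95% counting interval 663 to 146000). *Plxnb1*, the receptor of Sema4d, had 7376 counts against 2, a ratio of 1960 (542 to 16200). Its ligand gene *Sema4d* was also higher in 67NR, with 37.8, 36.0 and 32.2 CPM against 0.582, 0.917 and 0.0710. *Sema3e*, the ligand of Plxnd1, had 19466 counts in 67NR and 0 in 168FARN, which makes it at least 3450-fold higher when a floor of 3 counts over the group is used. These intervals and floors cover counting error only. *Efna5* measured 126.8, 139.2 and 122.2 CPM in 67NR and 28.8, 32.5 and 21.5 CPM in 168FARN, a log2 difference of 2.23 ± 0.22 (edgeR adjusted p = 1.26e-06). *Slit2* and its receptor gene *Robo1* lay on the same side, with 750 counts against 2 (ratio 199, 54.9 to 1650) and 340 against 1 (181, 32.2 to 7150).

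The 9 genes higher in 168FARN were 4 semaphorins, 4 plexins and *Robo3*. *Plxna2*, a receptor of class 6 and, with neuropilins, class 3 semaphorins, measured 30.0, 31.6 and 22.2 CPM in 168FARN and 1.01, 1.32 and 0.574 in 67NR, a log2 difference of −4.83 ± 0.32 (edgeR adjusted p = 1.98e-08). The transmembrane *Sema5a* measured 484.4, 518.4 and 238.5 CPM against 31.7, 36.3 and 32.4 (−3.63 ± 0.40). *Sema3a*, the founding repellent of the family, measured 41.7, 35.9 and 112.9 CPM against 3.01, 4.29 and 1.84 (−4.38 ± 0.77). *Sema4b*, a transmembrane class 4 member, differed by −1.31 ± 0.13. In these 4 genes no library of one line reached the range of the other. Of the 34 calls, those of *Ephb2*, *Ntn1*, *Plxna1* and *Plxna4* were lost when a single library was left out. *Ephb2* fell below the fold threshold without 168FARN replicate 1 (0.60) or 3 (0.58). *Ntn1* was lost without 168FARN replicate 1 or 3 or 67NR replicate 1 or 2 (edgeR adjusted p = 0.111 to 0.188), *Plxna1* without 168FARN replicate 1 or 2 or 67NR replicate 3 (0.102 to 0.15) and *Plxna4* without 67NR replicate 2 (0.122).

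**Figure D1:**
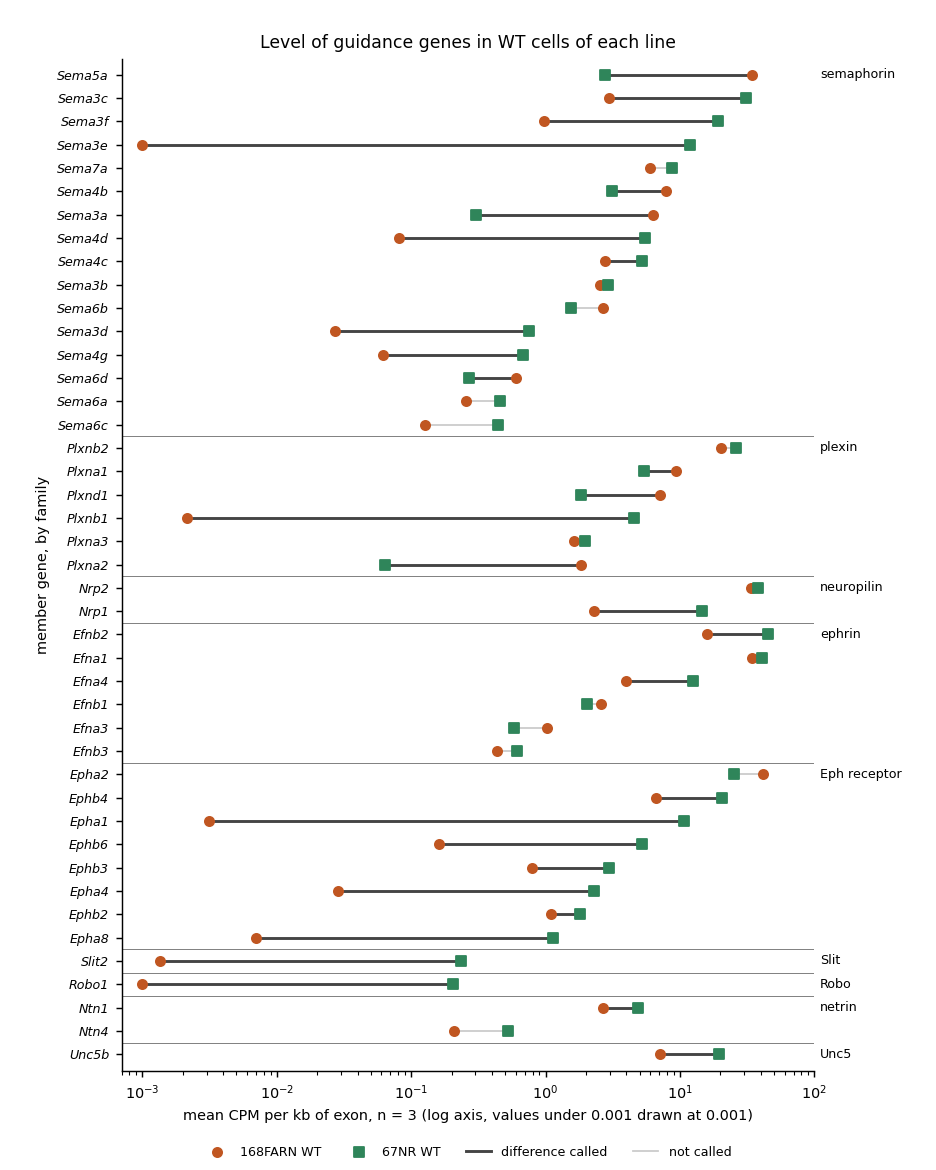
Mean CPM per kb of exon (log axis, n = 3) of the 43 guidance genes with a matched length and at least 1 CPM in WT cells of either line, ordered by family, in 168FARN WT (circles) and 67NR WT cells (squares), with dark lines for called differences. *Sema3e*, *Epha1* and *Plxnb1* span the widest gaps, with 0, 1 and 2 counts on the 168FARN side, whereas *Sema5a*, *Sema3a* and *Plxna2* lie higher in 168FARN.

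In 168FARN, 1 guidance gene, *Sema6a*, was called in each KO. Sema6a is a transmembrane ligand of Plxna2 and Plxna4. It measured 2.16, 2.57 and 2.01 CPM in WT, 12.1, 9.37 and 10.7 in *Kmt2c* KO and 7.15, 7.66 and 5.99 in *Kmt2d* KO libraries. All 6 KO libraries were above all WT libraries. The log2 fold change was 2.26 ± 0.23 in the *Kmt2c* KO (edgeR adjusted p = 0.018) and 1.64 ± 0.23 in the *Kmt2d* KO (0.0487). In both comparisons the 1 called gene was 2.44% of the 41 guidance genes tested, against 0.359% of all 12253 genes in the *Kmt2c* KO (0.196% higher and 0.163% lower) and 0.286% in the *Kmt2d* KO (0.147% and 0.139%). The call did not hold without WT replicate 1 or 2 in the *Kmt2c* KO, at edgeR adjusted p = 0.146 and 0.103, nor without any 1 of the 6 libraries in the *Kmt2d* KO, at 0.102 to 0.351. With only the 6 libraries compared, the edgeR adjusted p was 0.158 in the *Kmt2c* KO and 0.225 in the *Kmt2d* KO.

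Replicate 3 deviated from replicates 1 and 2 in the same way in every group, whereas replicates 1 and 2 were not told apart, and more guidance genes were called once the fit held the replicate number as a block. In the *Kmt2c* KO the block gave 11 higher and 0 lower, against 7.23% of all genes, and in the *Kmt2d* KO 7 higher and 1 lower, against 5.9%. *Sema6d*, a transmembrane ligand of Plxna1, measured 8.52, 7.24 and 3.43 CPM in WT, 27.1, 20.3 and 22.4 in *Kmt2c* KO and 18.3, 15.4 and 11.2 in *Kmt2d* KO libraries. No KO library overlapped WT, with log2 fold changes of 1.94 in the *Kmt2c* KO (edgeR adjusted p = 0.000123 with the block, 0.152 without) and 1.28 in the *Kmt2d* KO (0.0026 with the block, 0.44 without). *Sema7a* measured 15.4, 18.5 and 25.4 CPM in WT against 54.0, 52.0 and 102.7 in *Kmt2c* KO and 17.6, 24.0 and 47.1 in *Kmt2d* KO libraries. Only the *Kmt2c* KO libraries lay wholly above WT (1.77, edgeR adjusted p = 1.97e-05 with the block, 0.301 without).

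*Nrp1*, the neuropilin most closely tied to Sema3a, measured 14.6, 13.4 and 12.3 CPM in WT, 26.3, 21.9 and 25.6 in *Kmt2c* KO and 13.9, 12.1 and 11.5 in *Kmt2d* KO libraries. It was called in the *Kmt2c* KO with the block only (edgeR adjusted p = 0.00106 with it, 0.158 without). The netrin gene *Ntn1* went the same way, with 17.7, 19.5 and 12.9 CPM in WT and 34.5, 37.0 and 22.6 in *Kmt2c* KO libraries (0.00147 with the block, 0.458 without, edgeR). *Sema3c* was the 1 gene lower with the block in the *Kmt2d* KO, where it measured 10.4, 7.30 and 7.27 CPM against 24.0, 23.2 and 15.9 in WT (−1.30, edgeR adjusted p = 0.000302 with the block, 0.13 without). *Sema3d* measured 2.81, 2.50 and 0.754 CPM in *Kmt2d* KO and 0.205, 0.122 and 0.237 in WT libraries, and it was called only with the block (edgeR adjusted p = 0.00376, 0.115 without). The other genes called only with the block were *Plxna2*, *Ephb4*, *Ephb3*, *Efnb2*, *Sema3f* and *Efna4* in the *Kmt2c* KO and *Plxna2*, *Ephb6*, *Plxna3* and *Sema3a* in the *Kmt2d* KO, all higher. *Epha4*, which binds ephrins of both classes, had 18 counts over the WT libraries and 0 in either KO, at least 6-fold lower in the *Kmt2c* KO and at least 3.65-fold lower in the *Kmt2d* KO.

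**Figure D2:**
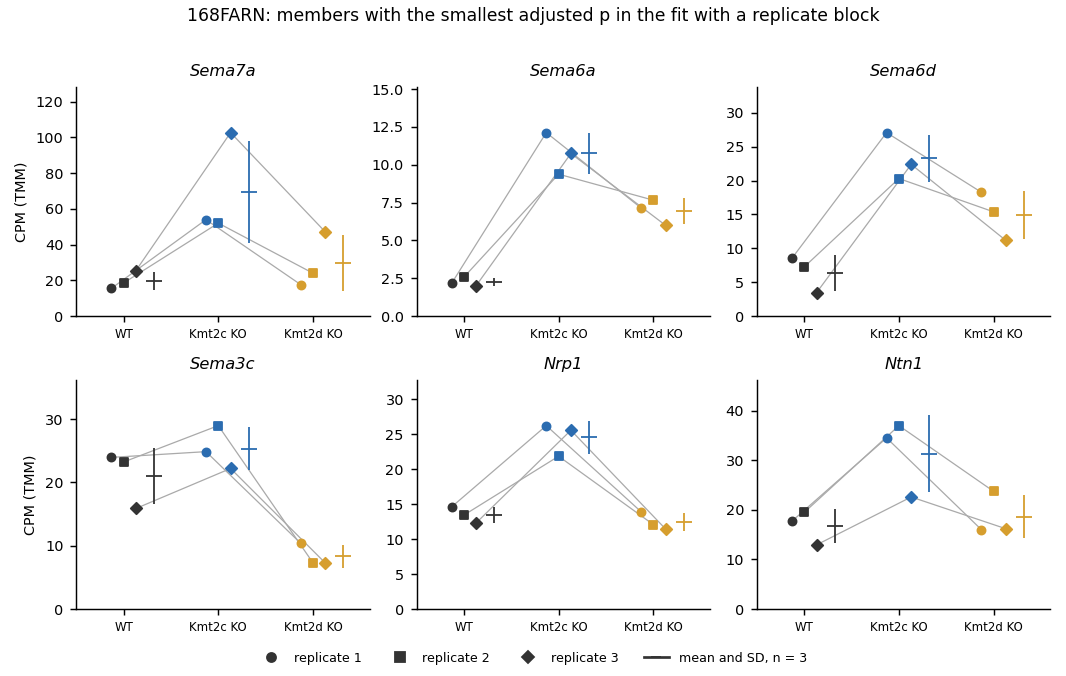
CPM (TMM) of 6 guidance genes in each 168FARN library, with grey lines joining libraries of the same replicate number and bars for the mean and SD (n = 3). *Sema6a* and *Sema6d* lie above WT in all KO libraries, *Nrp1*, *Ntn1* and *Sema7a* in the *Kmt2c* KO, and *Sema3c* lies below WT in the *Kmt2d* KO.

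In 67NR many more of these genes were called. In the *Kmt2c* KO 14 were higher and 20 lower of 53 tested, and in the *Kmt2d* KO 9 were higher and 18 lower. The 34 called in the *Kmt2c* KO were 64.2% of those tested, against 35.3% of all 13665 genes (17.9% higher and 17.4% lower). The 27 called in the *Kmt2d* KO were 50.9%, against 25.5% (13.9% and 11.6%). With the block 40 and 35 were called, against 41.3% and 32.7% of all genes. Median log2 fold changes were −0.36 and −0.55 over the guidance genes and −0.02 and −0.02 over all genes, and the median absolute change was 1.45 and 1.15 against 0.52 and 0.42. Here too the filter admits genes through the group where they are high. Both comparisons use the same WT libraries, so their calls are not independent: side by side, 9 genes were called higher in both, 16 lower in both, 0 in opposite directions, 9 in the *Kmt2c* KO only, 2 in the *Kmt2d* KO only and 17 in neither. Without replicate 3 of every group 40 and 36 guidance genes were called, 15 of the latter higher, beside 6126 and 4967 of all 13851 genes. Without *Kmt2c* KO replicate 1 the number higher in that KO dropped to 8. That fit called 27 guidance genes in either direction and 4376 of all 13919 genes. The epithelial markers given above fell in the same KO libraries, and their part in these changes was not tested.

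Semaphorins divided evenly in 67NR, with 6 higher and 6 lower of 17 tested in the *Kmt2c* KO and 5 and 5 in the *Kmt2d* KO. *Sema7a* (chromosome 9, 57787920 to 57810671 in mm9) measured 33.8, 27.9 and 24.1 CPM in WT, 478.7, 368.2 and 372.1 in *Kmt2c* KO and 172.6, 201.7 and 283.2 in *Kmt2d* KO libraries. Every KO library was above 5 times the highest WT library. Its log2 fold changes were 3.91 ± 0.24 (edgeR adjusted p = 6.88e-06) and 3.01 ± 0.23 (3.6e-05), and at 123 ± 19 CPM per kb in the *Kmt2c* KO it passed *Efnb2*, *Efna1* and *Nrp2*, which had led in WT cells.

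The class 3 ligand *Sema3a* measured 3.01, 4.29 and 1.84 CPM in WT, 38.4, 42.8 and 55.0 in *Kmt2c* KO and 22.3, 21.8 and 35.9 in *Kmt2d* KO libraries (3.97 ± 0.35 and 3.20 ± 0.34). *Sema5a* measured 31.7, 36.3 and 32.4 CPM in WT, 164.6, 166.3 and 124.3 in *Kmt2c* KO and 121.5, 117.0 and 102.3 in *Kmt2d* KO libraries (2.27 ± 0.17 and 1.84 ± 0.17). *Sema4b* measured 17.8, 16.5 and 16.9 CPM in WT, 73.1, 64.5 and 57.3 in *Kmt2c* KO and 36.5, 39.4 and 42.0 in *Kmt2d* KO libraries (2.01 ± 0.15 and 1.28 ± 0.14). In these 3 genes all 3 groups were separate, with *Kmt2d* KO libraries between WT and *Kmt2c* KO libraries. *Sema6d* measured 3.29, 3.64 and 1.56 CPM in WT, 24.6, 26.2 and 13.2 in *Kmt2c* KO and 15.6, 13.7 and 11.8 in *Kmt2d* KO libraries (2.99 ± 0.38 and 2.35 ± 0.37), where the 2 KOs overlapped each other but not WT. The largest edgeR adjusted p among these 4 genes was 0.000325 in the *Kmt2c* KO and 0.00192 in the *Kmt2d* KO. *Sema6b* was called higher in the *Kmt2c* KO (1.35 ± 0.55) and was not called in the *Kmt2d* KO without the block. It measured 4.63, 2.84 and 11.1 CPM in WT and 5.37, 7.64 and 16.3 in *Kmt2d* KO libraries, higher within each replicate number. With the block 6 semaphorins were called higher in the *Kmt2d* KO, against 5 without.

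Other class 3 and class 4 semaphorins were lower. *Sema3f*, the main ligand of Nrp2, measured 82.0, 67.7 and 50.1 CPM in WT, 14.1, 13.2 and 15.2 in *Kmt2c* KO and 14.2, 21.1 and 22.5 in *Kmt2d* KO libraries (−2.15 ± 0.23 and −1.71 ± 0.23). *Sema4d* measured 37.8, 36.0 and 32.2 CPM in WT, 7.44, 7.01 and 4.20 in *Kmt2c* KO and 11.3, 12.1 and 7.48 in *Kmt2d* KO libraries (−2.42 ± 0.27 and −1.70 ± 0.27). *Sema3e* measured 111.8, 124.0 and 36.0 CPM in WT, 14.7, 11.9 and 8.10 in *Kmt2c* KO and 27.3, 25.1 and 26 in *Kmt2d* KO libraries (−2.88 ± 0.43 and −1.72 ± 0.41). WT replicate 3 was the lowest WT library in all 3 genes and still lay above every KO library. *Sema4g* measured 4.65, 2.78 and 2.46 CPM in WT against 0.613, 0.672 and 0.282 in *Kmt2c* KO and 0.424, 0.423 and 0.603 in *Kmt2d* KO libraries (−2.56 ± 0.45 and −2.69 ± 0.45). *Sema3d* measured 5.87, 6.44 and 3.47 CPM in WT, 0.131, 0.459 and 0.188 in *Kmt2c* KO and 3.67, 3.13 and 2.64 in *Kmt2d* KO libraries. Only the *Kmt2c* KO was apart from WT for this gene (−4.24 ± 0.51, edgeR adjusted p = 0.000241), and the *Kmt2d* KO was not called (−0.66 ± 0.43, 0.32). *Sema6c* was lower in both KOs (−2.24 ± 0.52 and −1.67 ± 0.51).

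The abundant *Sema3c* was not called in either KO. Its WT replicate 3 at 79.2 CPM lay far from the other WT libraries at 277.4 and 306.7, beside 89.2 to 124.9 in *Kmt2c* KO and 92.9 to 151.4 in *Kmt2d* KO libraries. With the block it was called lower in the *Kmt2c* KO (−0.79, edgeR adjusted p = 0.033). Within replicate 3, however, the *Kmt2c* KO library (89.2 CPM) lay above WT (79.2). *Sema3b*, *Sema4a* and *Sema4c* were not called in either KO. *Sema6a*, the gene called in 168FARN, measured 4.59, 3.59 and 3.93 CPM in WT, 2.69, 2.57 and 0.235 in *Kmt2c* KO and 2.45, 2.28 and 0.251 in *Kmt2d* KO libraries of 67NR. All KO libraries were below WT there, and the gene was called only with the block, lower by −1.58 and −1.71 (edgeR adjusted p = 0.0667 and 0.0622 with it, 0.399 and 0.383 without).

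Of the plexins, which carry the semaphorin signal into the cell through a GAP domain, 5 were higher and 1 lower of 9 tested in the *Kmt2c* KO and 3 and 2 in the *Kmt2d* KO. *Plxna2* (chromosome 1, 196446023 to 196643063 in mm9) measured 1.01, 1.32 and 0.574 CPM in WT, 14.9, 14.2 and 15.1 in *Kmt2c* KO and 10.6, 10.5 and 12.5 in *Kmt2d* KO libraries. The 6 KO libraries were close to each other and all far above WT (3.99 ± 0.30, edgeR adjusted p = 1.58e-05, and 3.59 ± 0.29, 4.45e-05). *Plxnb1* went the other way, with 31.1, 31.1 and 60.4 CPM in WT, 7.15, 6.01 and 8.38 in *Kmt2c* KO and 7.23, 10.1 and 18.5 in *Kmt2d* KO libraries (−2.43 ± 0.39 and −1.70 ± 0.38). Its ligand gene *Sema4d* fell in the same comparisons. *Plxna1* (0.80 ± 0.19) and *Plxnd1* (1.26 ± 0.37), the latter the receptor of Sema3e, were called higher in the *Kmt2c* KO only. *Plxnd1* was called in the *Kmt2d* KO with the block (0.81, edgeR adjusted p = 0.00346, 0.162 without). The most abundant plexin gene, *Plxnb2*, measured 208.8, 175.9 and 192.4 CPM in WT against 107.4, 123.0 and 127.2 in the *Kmt2d* KO (−0.61 ± 0.15, edgeR adjusted p = 0.0193), just past the fold threshold, and 151.1, 127.1 and 114.3 in the *Kmt2c* KO, just short of it (−0.47 ± 0.15). *Plxna4* and *Plxnb3* were called higher in both KOs from levels of at most 1.75 CPM. *Plxna3* and *Plxnc1* were not called.

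Neither neuropilin was called. *Nrp1* measured 66.4, 77.7 and 113.0 CPM in WT, 39.4, 37.5 and 69.5 in *Kmt2c* KO and 32.8, 32.4 and 72.1 in *Kmt2d* KO libraries, so replicate 3 was highest in each group. Within each replicate number the KO libraries were lower than WT, and with the block *Nrp1* was called (−0.76 and −0.90, edgeR adjusted p = 0.000706 and 0.000344, 0.166 and 0.147 without). *Nrp2* measured 433.7, 414.8 and 240.2 CPM in WT, 677.1, 584.9 and 327.0 in *Kmt2c* KO and 563.7, 587.5 and 338.4 in *Kmt2d* KO libraries, so both KOs were above WT within each number. It was called higher in the *Kmt2c* KO with the block (0.61, edgeR adjusted p = 0.00116, 0.19 without).

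**Figure D3:**
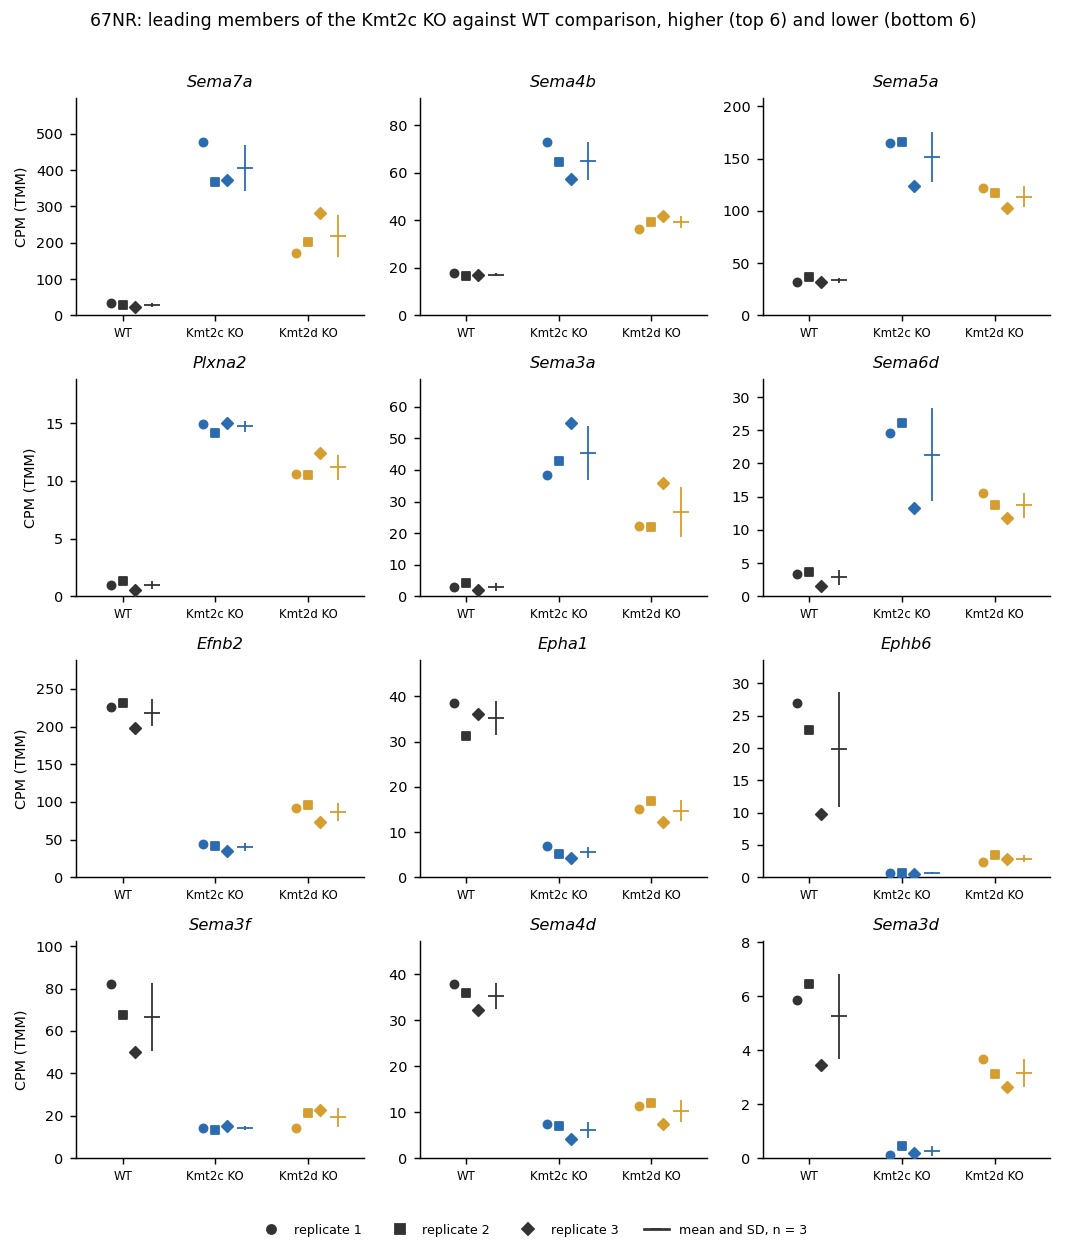
CPM (TMM) of 12 guidance genes in each 67NR library, with marker shape for the replicate number and bars for the mean and SD (n = 3), for the 6 higher and the 6 lower genes with the smallest p in the *Kmt2c* KO. KO and WT libraries are apart in every panel except *Sema3d*, where *Kmt2d* KO and WT libraries overlap.

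Of the ephrins and Eph receptors called in the KOs of 67NR most were lower, with 3 of 8 ephrins lower in each KO, 5 of 9 tested Eph receptors lower in the *Kmt2c* KO and 4 in the *Kmt2d* KO, and 1 of each family higher, both in the *Kmt2c* KO. *Efnb2* (chromosome 8, 8617434 to 8661239 in mm9), the ligand of Ephb4 that marks arterial endothelium, measured 226.1, 230.6 and 197.5 CPM in WT, 44.7, 41.4 and 34.7 in *Kmt2c* KO and 92.2, 95.2 and 72.9 in *Kmt2d* KO libraries. The 3 groups were fully separate (−2.35 ± 0.17, edgeR adjusted p = 1.48e-05, and −1.25 ± 0.17, 0.000789), and the gene with the highest level per kb in WT cells went to 8.41 ± 1.06 CPM per kb in the *Kmt2c* KO. *Efna5* measured 126.8, 139.2 and 122.2 CPM in WT, 54.8, 50.0 and 38.5 in *Kmt2c* KO and 77.7, 93.2 and 54.2 in *Kmt2d* KO libraries (−1.35 ± 0.22 and −0.71 ± 0.22). *Efna4* was lower in both (−1.09 ± 0.31 and −0.96 ± 0.31) and *Efna3* higher in the *Kmt2c* KO (0.79 ± 0.28). *Efna1*, *Efna2*, *Efnb1* and *Efnb3* were not called without the block. With the block 2 ephrins were called higher and 3 lower in the *Kmt2c* KO, and 2 higher and 4 lower in the *Kmt2d* KO. *Efna1*, the preferred ligand of Epha2, measured 56.7 to 123.1 CPM over all 67NR libraries.

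*Epha1* measured 38.5, 31.2 and 36.2 CPM in WT, 6.89, 5.24 and 4.30 in *Kmt2c* KO and 15.0, 16.9 and 12.2 in *Kmt2d* KO libraries, again with 3 separate groups (−2.60 ± 0.23 and −1.18 ± 0.22, edgeR adjusted p = 4.09e-05 and 0.00478). *Ephb6* (chromosome 6, 41555481 to 41570508 in mm9), a receptor without kinase activity, measured 26.9, 22.7 and 9.76 CPM in WT, 0.692, 0.688 and 0.423 in *Kmt2c* KO and 2.31, 3.50 and 2.84 in *Kmt2d* KO libraries. It had the lowest log2 fold change of the guidance genes tested in the *Kmt2c* KO (−4.94 ± 0.44, edgeR adjusted p = 4.33e-05), and it was −2.70 ± 0.39 in the *Kmt2d* KO (0.00131). *Epha8* was lower in both (−2.11 ± 0.43 and −1.15 ± 0.42), *Ephb2* (−0.85 ± 0.18) and *Epha4* (−1.45 ± 0.47) were called lower in the *Kmt2c* KO, and *Ephb3* in the *Kmt2d* KO (−0.66 ± 0.17), with −0.59 ± 0.18 for *Ephb2* and −0.56 ± 0.17 for *Ephb3* in the other KO, short of the threshold. *Epha2*, a receptor often raised in carcinoma, was the 1 Eph gene that rose, from 126.3, 105.5 and 120.1 CPM in WT to 200.3, 170.4 and 162.1 in the *Kmt2c* KO (0.68 ± 0.15, edgeR adjusted p = 0.00731), with 157.4, 165.7 and 137.0 in the *Kmt2d* KO (0.46 ± 0.15, not called). *Ephb4* and *Epha7* were not called.

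All 4 netrins, 2 of 3 Robo receptors, 1 of 3 Slits and 1 of 4 Unc5 receptors passed the filter in 67NR. *Slit2* measured 4.68, 3.82 and 2.16 CPM in WT, 0.261, 0.153 and 0.0470 in *Kmt2c* KO and 0.738, 1.27 and 1.11 in *Kmt2d* KO libraries (−4.37 ± 0.60, edgeR adjusted p = 0.000531, and −1.70 ± 0.52, 0.0441). Its receptors *Robo1* and *Robo2* were not called without the block. With the block, 1 of the 2 tested Robo genes was called lower in each KO. *Robo1* measured 1.32, 1.19 and 3.38 CPM in WT, 0.444, 0.489 and 1.27 in *Kmt2c* KO and 0.406, 1.07 and 1.43 in *Kmt2d* KO libraries. Within each replicate number both KOs were below WT. *Ntn1* measured 37.2, 33.8 and 19.96 CPM in WT, 10.4, 8.47 and 5.07 in *Kmt2c* KO and 10.1, 12 and 7.03 in *Kmt2d* KO libraries (−1.84 ± 0.34 and −1.56 ± 0.34, edgeR adjusted p = 0.0031 and 0.0106). Its receptor gene *Unc5b* measured 149.2, 123.1 and 71.5 CPM in WT, 65.2, 48.5 and 43.4 in *Kmt2c* KO and 47.5, 60.0 and 45.5 in *Kmt2d* KO libraries (−1.05 ± 0.28 and −1.09 ± 0.28). Ligand and receptor were thus both lower than in every WT library. *Ntn4* was lower in both (−3.47 ± 0.60 and −3.14 ± 0.59), *Ntn3* in the *Kmt2c* KO (−1.78 ± 0.59), and *Ntn5*, at most 0.639 CPM, was higher in both. A few genes that did not pass the filter had more counts in the KOs than in WT. *Robo3* had 24 counts in *Kmt2c* KO, 20 in *Kmt2d* KO and 1 in WT libraries, ratios of 25.5 (95% counting interval 4.16 to 1050) and 26.5 (4.23 to 1100). *Slit1* had 24 and 18 counts against 0, at least 8.5-fold and 7.94-fold higher, and *Epha6* 19 and 12 against 0, at least 6.73-fold and 5.29-fold higher.

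Several of these calls in 67NR rested on single libraries. In the *Kmt2c* KO, *Sema6b* kept its call only without WT replicate 3 of the 6 fits with 1 library left out (edgeR adjusted p = 0.117 to 0.223 in the others). *Plxna4* lost it without WT replicate 1 or 3 or *Kmt2c* KO replicate 1 or 2 (0.175 to 0.243), *Plxnb3* without WT replicate 1 or 2 or *Kmt2c* KO replicate 1 or 2 (0.107 to 0.201), *Efna3* without WT replicate 1 or 2 or *Kmt2c* KO replicate 1 or 3 (0.11 to 0.181) and *Ntn3* without WT replicate 2 or any *Kmt2c* KO replicate (0.1 to 0.176, all edgeR). *Epha4* was lost without WT replicate 3 or *Kmt2c* KO replicate 1 or 2 (edgeR adjusted p = 0.107 to 0.128) and *Plxnd1* without *Kmt2c* KO replicate 1 (0.106). *Epha2* fell below the fold threshold without WT replicate 2 (0.60) or *Kmt2c* KO replicate 1 (0.58). In the *Kmt2d* KO, *Plxnb3* kept its call only without WT replicate 3 (edgeR adjusted p = 0.117 to 0.339 in the others). *Efna5* (0.104 to 0.119) and *Epha8* (0.165 to 0.257) lost it without WT replicate 1 or 2 or *Kmt2d* KO replicate 1 or 3, and *Plxna4* (0.124 to 0.192) without WT replicate 1 or 3 or *Kmt2d* KO replicate 1 or 2. *Efna4* (0.112 to 0.162) lost it without WT replicate 3 or *Kmt2d* KO replicate 1 or 2, *Ntn5* (0.12 to 0.159) without WT replicate 1 or *Kmt2d* KO replicate 2 or 3, *Sema6c* (0.103 to 0.139) without WT replicate 1 or *Kmt2d* KO replicate 1 or 3 and *Slit2* (0.109 to 0.152) without WT replicate 1 or 2 or *Kmt2d* KO replicate 1. *Plxnb2* fell short of the fold threshold without WT replicate 1 (−0.54) or *Kmt2d* KO replicate 1 (−0.55). All other genes called in 67NR KOs against WT kept their calls when any 1 library of the comparison was left out.

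**Figure D4:**
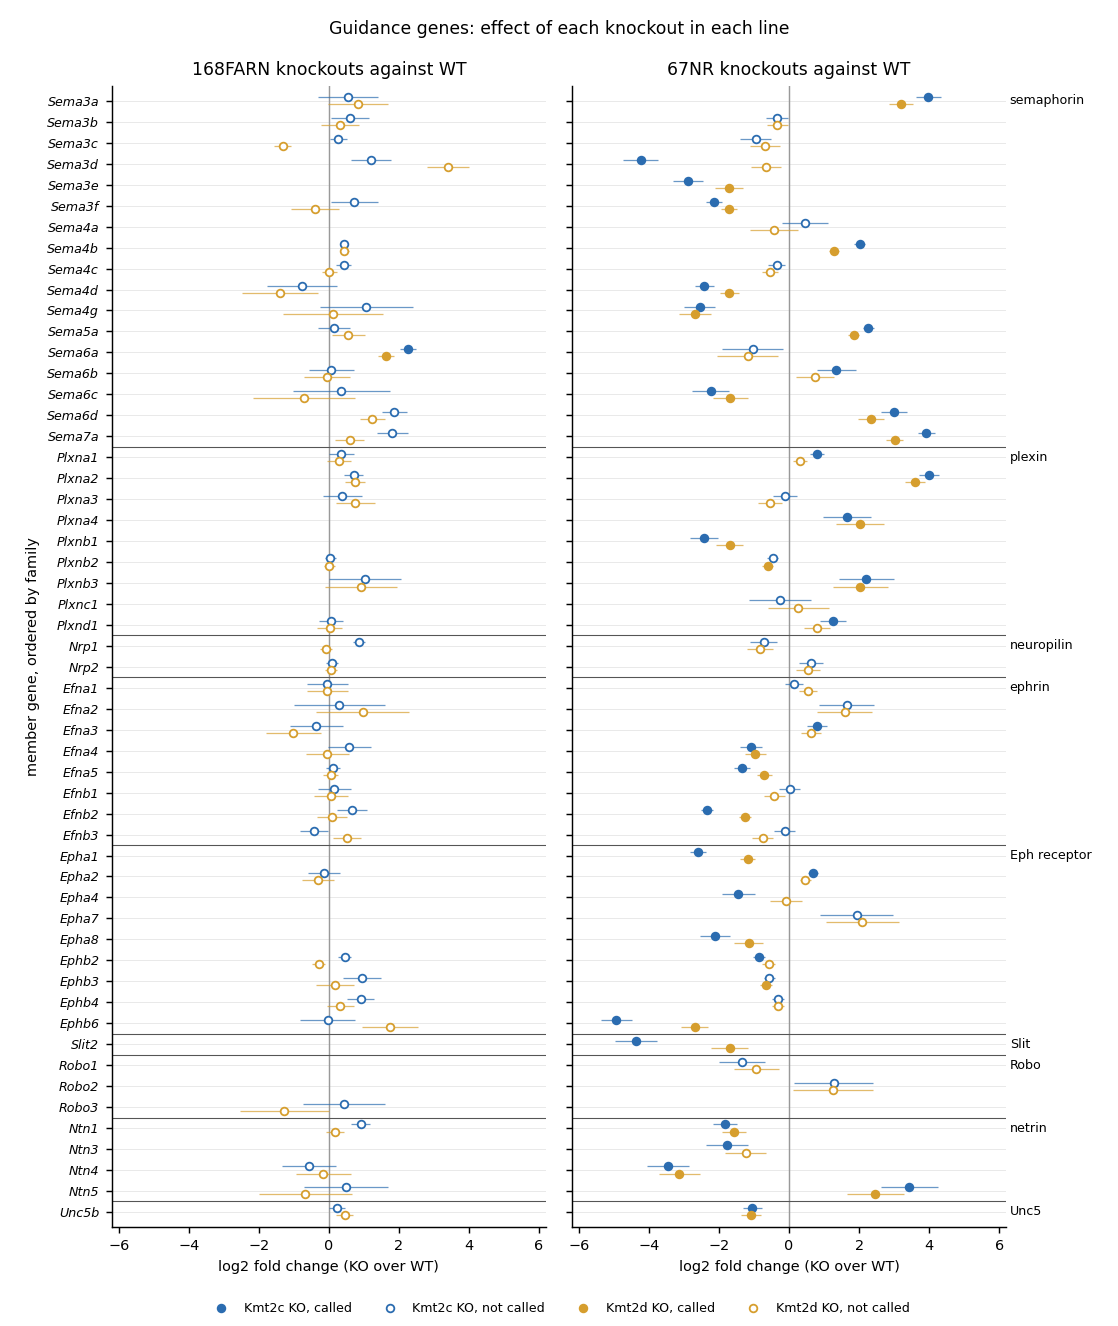
Log2 fold change of each KO against WT with its SE in 168FARN (left) and 67NR (right) for the 54 guidance genes tested in either line, ordered by family, with filled markers for called genes. *Sema6a* is the only filled row in 168FARN, whereas in 67NR filled markers lie on both sides of 0. In most of the 12 genes picked by smallest p in the 67NR *Kmt2c* KO, the *Kmt2d* KO marker is nearer to 0. That choice of genes favours larger changes in the *Kmt2c* KO.

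Whether the KOs differed from each other was tested directly. In 67NR, 1 guidance gene was higher and 5 were lower in the *Kmt2c* KO than in the *Kmt2d* KO, 11.3% of those tested against 1.41% of all genes (0.132% higher and 1.28% lower). The gene higher was *Sema4b* (0.73 ± 0.14), and those lower were *Sema3d* (−3.58 ± 0.50), *Efnb2* (−1.10 ± 0.17), *Epha1* (−1.42 ± 0.22), *Ephb6* (−2.24 ± 0.40) and *Slit2* (−2.67 ± 0.57). Of these, *Sema3d* (edgeR adjusted p = 0.016) alone was called in all 6 fits with 1 library left out, and only 1 guidance gene was called without *Kmt2c* KO replicate 2 or *Kmt2d* KO replicate 1 or 2, and 3 without *Kmt2c* KO replicate 1. Over all genes those fits called 42, 54, 61 and 58, against 193 with every library. With the replicate block 12 guidance genes were called, against 7.29% of all genes, among them *Sema7a* (0.89, edgeR adjusted p = 0.0217 with it, 0.132 without). In 168FARN *Sema3c* was the 1 gene called, higher in the *Kmt2c* KO by 1.59 ± 0.24 (edgeR adjusted p = 0.0692), against 0.253% of all genes (0.131% higher and 0.122% lower), and the call was lost in 5 of 6 fits with 1 library left out, all but that without *Kmt2c* KO replicate 3 (0.143 to 0.376). With the block, 10 were higher and 3 lower there, against 5.33% of all genes.

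The effect of each KO was also compared between the lines by an interaction over all 18 libraries. For the *Kmt2c* KO 20 of 52 guidance genes differed, 38.5% against 16% of all genes, with 6 effects higher and 14 lower in 67NR (8.49% and 7.55% of all genes). For the *Kmt2d* KO 13 differed, 25% against 10.6%, with 5 higher and 8 lower (6.68% and 3.92%). Here too the filter admits genes through the line where they are high, so these shares describe the tested genes only. Where a gene had few counts in a line, its fitted value leans on the prior count added by edgeR. *Plxna2*, *Sema4b* and *Sema7a* gave higher values in 67NR for both KOs (3.20, 1.5 and 2.02 for *Kmt2c*, 2.79, 0.77 and 2.36 for *Kmt2d*, on the log2 scale). *Sema3d* (−5.54 and −4.13), *Ephb6* (−4.99 and −4.51), *Ntn1* (−2.84 and −1.80) and *Efnb2* (−3.10 and −1.41) gave lower values for both. In 168FARN WT libraries *Sema3d* measured only 0.205, 0.122 and 0.237 CPM and *Ephb6* 0.718, 0.764 and 0.331. The size of their differences therefore rests on few counts. *Sema6a*, higher in the 168FARN KOs, differed by −3.39 and −2.89. Of these genes, *Efnb2* lost its call for the *Kmt2d* KO in 10 of the 12 fits with 1 library left out (edgeR adjusted p = 0.102 to 0.227) and *Sema6a* in all 12 (0.111 to 0.198). With the block, 36 and 32 guidance genes differed, against 34.6% and 28.4% of all genes. The *Kmt2d* count dropped to 7 without 67NR WT replicate 1 or 168FARN WT replicate 1. It dropped to 8 without 67NR *Kmt2d* KO replicate 1 or 168FARN *Kmt2d* KO replicate 2. Over all genes these fits called 1099, 1047, 1082 and 1084, against 1471 with every library.

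Co-receptors and intracellular effectors of these pathways were followed as a separate list, of which 60 of 61 genes were in the files. In 67NR, 15 were higher and 7 lower of 53 tested in the *Kmt2c* KO, or 41.5% beside 35.3% of all genes, and 8 and 5 in the *Kmt2d* KO, or 24.5% beside 25.5%. Their medians were 0.41 and 0.21, against −0.02 over all genes in either comparison. *Flrt2*, a ligand of Unc5 receptors, measured 4.52, 6.13 and 2.53 CPM in WT, 73.5, 78.8 and 120.7 in *Kmt2c* KO and 61.7, 60.4 and 75.5 in *Kmt2d* KO libraries (4.45 ± 0.35 and 3.98 ± 0.34). Its paralogue *Flrt3* measured 41.1, 43.7 and 46.2 CPM in WT, 7.15, 6.28 and 7.18 in *Kmt2c* KO and 25.4, 22.4 and 22.3 in *Kmt2d* KO libraries (−2.58 ± 0.15 and −0.82 ± 0.14), and it was also lower in the *Kmt2c* KO than in the *Kmt2d* KO of 168FARN (−2.71 ± 0.28, edgeR adjusted p = 0.0196). The kinase *Pak1* (2.26 ± 0.17 and 1.71 ± 0.17), the plexin-bound GTPase *Rnd1* (1.37 ± 0.20 and 0.95 ± 0.20) and the plexin effector *Mical1* (2.96 ± 0.52 and 2.32 ± 0.51) rose in both KOs of 67NR. *Rnd3* (−2.14 ± 0.36 and −1.29 ± 0.35), the kinase *Fes* (−1.96 ± 0.34 and −1.23 ± 0.33) and *Dpysl5* of the CRMP family (−3.70 ± 0.75 and −4.82 ± 0.84) fell in both. In 168FARN 1 of 50 was called in the *Kmt2c* KO, the Eph-linked exchange factor *Ngef* (1.14 ± 0.16, edgeR adjusted p = 0.0467), beside 0.359% of all genes. With the block 9 were called there, beside 7.23% of all genes, and 4 in the *Kmt2d* KO, beside 5.9%. Between the WT cells of the lines 8 were higher and 13 lower in 67NR of 54 tested, 38.9% beside 39.2% of all genes.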

How the data were processed

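Gene counts from RNA-seq of 18 libraries were used, 3 for each genotype (WT and either KO) of 168FARN and 67NR. The libraries were strand-specific and poly(A)-selected. The authors aligned the reads with STAR to mm9 in the VIPER pipeline and deposited raw counts per gene symbol. Whether reads were counted by strand is not given in the sources used here, so counts of overlapping and antisense genes are uncertain. Each of the 18 columns was matched to its sample by name, and 0 columns were left unused. In each file 27 symbols had been turned into dates and were not analysed here.

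The sums of the counts are the library depths given above, and they limit what can be said of genes with few counts. Counts were tested in R 4.3.3 with edgeR 4.0.16 (TMM, filterByExpr, robust quasi-likelihood fit), on the 9 libraries of a line for comparisons of genotypes and on all 18 for those between lines, with P values adjusted by Benjamini-Hochberg over all genes tested. SE was taken as the absolute log2 fold change over the root of the F statistic. The authors' methods name DESeq2 for such tests, and DESeq2 1.42.0 was an alternative. Other alternatives were DESeq2's size factors, testing every gene with a count, a block for replicate number, stricter or no fold thresholds, no robust fit, the compared libraries alone, and leaving out each library or replicate 3 of every group. The test was tried on simulated counts with known changes. Lengths are of merged exons in GENCODE vM1 (mm9). Promoters are from RefSeq. Figures were drawn with Python 3.11.15.

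The replicate numbers were taken to pair the samples, a pairing carried mostly by replicate 3. Deviations from the group means of same-numbered libraries correlated (r from 0.65 to 0.897 for 168FARN, 0.351 to 0.717 for 67NR) and those of replicate 3 negatively with the others. Replicates 1 and 2 of different groups correlated about as strongly with each other (0.623 to 0.728 and 0.284 to 0.523), so these 2 numbers were not told apart.

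Guidance genes were named by this rule: up to 6 called in each direction with the smallest P against WT, up to 4 between lines, and all others by family. The genes, lists, tests and this rule were chosen with earlier results of these data known.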

Additional observations from a re-analysis of the deposited data

Results flagged for a closer look

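The difference between the log2 fold change of a KO in 67NR and in 168FARN passed edgeR's interaction test for 20 guidance genes with the *Kmt2c* KO. Values above 0, which mean a higher fold change in 67NR, were found for *Sema4b* (1.5), *Plxna2* (3.20), *Sema7a* (2.02), *Sema5a* (2.04), *Sema3a* (3.34) and *Epha4* (4.47). Values below 0 were found for *Sema3d* (−5.54), *Efnb2* (−3.10), *Ntn1* (−2.84), *Ephb6* (−4.99), *Ephb2* (−1.38), *Efna5* (−1.56), *Slit2* (−6.67), *Sema3f* (−2.95), *Nrp1* (−1.68), *Unc5b* (−1.36), *Sema6a* (−3.39), *Ephb4* (−1.31), *Ntn4* (−2.96) and *Ephb3* (−1.58). With the *Kmt2d* KO 13 genes passed. Values above 0 were found for *Plxna2* (2.79), *Sema7a* (2.36), *Sema4b* (0.774), *Epha4* (5.82) and *Robo3* (5.50), and values below 0 for *Sema3d* (−4.13), *Ephb6* (−4.51), *Unc5b* (−1.60), *Ntn1* (−1.80), *Plxnb2* (−0.692), *Ntn4* (−3.04), *Efnb2* (−1.41) and *Sema6a* (−2.89). In *Epha4*, *Robo3* and *Slit2* a group had at most 3 counts, so the fitted value depends on the prior count added by edgeR and is no bound. *Sema3d* and *Ephb6* were also low in 168FARN WT, with at most 10 and 25 counts in a library. For *Sema6a* the 2 lines went in opposite directions in every library, higher than WT in the 168FARN KOs and lower than WT in those of 67NR. The call of *Sema6a* for the *Kmt2d* KO was lost without any 1 of the 12 libraries compared, at edgeR adjusted p values of 0.111 to 0.198, and that of *Ephb3* for the *Kmt2c* KO without 11 of the 12, at 0.11 to 0.279. Calls of *Ephb4* (0.116 to 0.242, 9 fits), *Ntn4* (0.105 to 0.222, 8 fits) and *Epha4* (0.109 to 0.155, 9 fits) for the *Kmt2c* KO were also lost when single libraries were left out, by edgeR adjusted p. So were those of *Efnb2* (0.102 to 0.227, 10 fits), *Plxnb2* (0.101 to 0.274, 8 fits), *Ntn4* (0.153 to 0.214, 8 fits), *Robo3* (0.114 to 0.164, 8 fits) and *Epha4* (0.102 to 0.13, 6 fits) for the *Kmt2d* KO.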

How the results depend on the processing

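Numbers of guidance genes called in the KO against WT comparisons of 67NR and in WT against WT were within 1.5 times of those reported under all alternatives, and no call changed direction under any alternative that was run. In 168FARN, the 1 gene called in the *Kmt2c* KO became 5 with DESeq2, 11 with the replicate block and 11 with DESeq2 and the block. It became 14 without replicate 3 of every group and 0 with the compared libraries alone. Over all genes, the 44 of 12253 called became 288, 886, 917, 1780 and 4 in the same order. The 1 in the *Kmt2d* KO became 4, 8, 8, 11 and 0 under the same settings, and over all genes 35 became 248, 723, 797, 1346 and 0. The 1 between the KOs became 4, 13, 13, 14 and 0, and 0 at an adjusted p under 0.05 with a fold threshold of 0.5 or none. Over all genes, 31 became 235, 653, 707, 1141 and 2, and 21 at that stricter p. Leaving out 1 library gave 0 to 1 guidance genes in each of these 3 comparisons. For the *Kmt2c* KO it gave 0 without WT replicate 1 or 2. For the *Kmt2d* KO it gave 0 without any 1 but *Kmt2d* KO replicate 3, and between the KOs without any 1 but *Kmt2c* KO replicate 3. Over all genes such fits called 2 to 57, 0 to 18 and 2 to 35. In 67NR, the 6 between the KOs became 12 with the block, 15 with DESeq2 and the block and 16 without replicate 3. They became 3 at the stricter p with either fold threshold, and 1 to 6 with 1 library left out. Over all genes, 193 became 996, 1211, 1743, 90 and 42 to 210 in the same order. The interaction count of 20 for *Kmt2c* became 36 with the block, 35 with DESeq2 and the block, and 36 without replicate 3. That of 13 for *Kmt2d* became 32, 32 and 33, 7 at the stricter p with either fold threshold, and 7 to 12 with 1 library left out. Over all genes, 2226 became 4805, 4946 and 5303 for *Kmt2c*. For *Kmt2d* 1471 became 3939, 4070 and 4539, 1013 at the stricter p, and 1047 to 1569 with 1 library left out. The cause of these shifts was not tested. With 3 replicates that share a collection effect, a missed threshold in 168FARN does not show that a gene did not change. Genes with a few counts, such as *Robo3*, *Slit1* and *Epha4* in 168FARN, are limited by depth.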
